A study of Homo sapiens with 2 samples.

Results

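The clustered protocadherins are cell surface adhesion proteins encoded in 3 neighbouring gene arrays on chromosome 5, alpha (PCDHA), beta (PCDHB) and gamma (PCDHG). Their members here were the transcript clusters of an Affymetrix array, the units for which one signal is given, whose identifier places them on chromosome 5 and whose platform gene symbols all begin with PCDHA, PCDHB or PCDHG. The rule used no signal, although the members were chosen with earlier results of these data known. The rule gave 32 of 67527 transcript clusters, of which 5 were PCDHA, 19 PCDHB and 8 PCDHG. RNA came from NCI-H446, a long-established line from a human small cell lung carcinoma, grown in DMEM with serum. The MTA1-overexpressing cells (NCI-H446-MTA1) stably carried an overexpression plasmid for MTA1, a core protein of NuRD, which deacetylates histones and remodels chromatin. The control cells (NCI-H446-NC) carried a control vector. The labels do not say whether either line was a pool or 1 clone, and each group was 1 array.

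Protocadherins of these arrays bind like proteins on neighbouring cells, and neurons use different sets of them to tell their own branches from those of other neurons. In the alpha and gamma arrays each variable exon has its own promoter and is spliced to constant exons that the whole array shares, whereas each beta gene is a lone coding exon with no shared tail. Which promoters are used in a cell depends on DNA methylation and on looping to distant enhancers by CTCF and cohesin. Most of these promoters carry a conserved sequence element whose core is CGCT.

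Since neither group had a replicate, no difference could be checked or tested, and each describes these 2 arrays. Values are log2 signals as deposited. Differences are MTA1-overexpressing minus control. A signal floor of 3.62 was used, which is the median of the 2-array mean signal across transcript clusters, and a member below it on both arrays was not told apart from background. The floor is a set level and not a measured background. The array's 23 background probe sets lay between 2.18 and 6.96, with a median of 2.80, and no member exceeded 6.81. Reaching the floor therefore does not by itself show expression. Signals of different transcript clusters come from different probes, so members are compared between the arrays and not with each other. MTA1 itself stood at 9.82 in MTA1-overexpressing and 7.31 in control cells, a 5.71-fold difference. Of the neuroendocrine markers of small cell lung carcinoma, CHGA, SYP and NCAM1 were below the floor on both arrays, while INSM1 was at 4.21 in MTA1-overexpressing and 4.06 in control cells, and UCHL1 at 5.21 in MTA1-overexpressing and 5.30 in control cells. The neuronal genes RBFOX3, SLC17A7 and STMN2 were below the floor on both arrays, and 3 of the 6 measured neuron markers were above it. Among these the microtubule protein gene MAP2 was at 6.14 in MTA1-overexpressing and 5.24 in control cells, the synaptic vesicle fusion gene SNAP25 at 5.00 in MTA1-overexpressing and 4.92 in control cells, and the GABA synthesis gene GAD1 at 4.83 in MTA1-overexpressing and 4.79 in control cells. The part of these markers in the results was not tested. The medians over all features were 3.68 on the MTA1 array and 3.67 on the control array. Because 829 features exceeded 16, the ceiling of a 16-bit scan in log2, the deposited values had been transformed in some further way not stated in the labels, on which fold sizes depend. On the MTA1 array the 4 spike-in hybridisation controls (bioB, bioC, bioD, cre) were 0.23 to 0.28 higher.

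Of the 32 members, 30 carried 1 symbol and 2 carried several. The first alpha cluster listed 15 PCDHA symbols at once, and 1 beta cluster listed PCDHB10 and PCDHB9 together. The members included 4 pseudogenes, PCDHB17P, PCDHB18P, PCDHB19P and PCDHGB8P. The 30 members with 1 symbol lay in the same order in the array's identifiers as in the RefSeq annotation of chromosome 5. RefSeq lists 53 protein-coding genes of the family. The members cover 38 of them, 26 by a cluster of their own, and the other 15 are all gamma genes, PCDHGC3 and PCDHGA12 among them, which are not analysed here. The genes are close copies of each other, and signal shared between paralogs could not be told apart.

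The promoters of the beta genes are shown first, since all members at least 1.5-fold apart between the arrays were beta members. RefSeq promoter windows of 300 bases, 250 before and 50 after the annotated start, were at hand for 47 genes of the family and for 23 of the 30 members with 1 symbol. The most widely shared stretch of 12 bases among the 14 beta genes with a window was GGTGGCGCTGCA. It occurred in 10 of them, in no alpha or gamma window, and in 15 of 35116 windows of all genes, or 0.0427%, counting both strands. The stretch was picked for being the most shared in beta windows, and its share there is no independent result. The 10 beta genes with it are given below with 20 bases on either side, on build GRCh38.p14, plus strand, the shared stretch in capitals. The first 4 are the genes of the members at least 1.5-fold lower in MTA1-overexpressing cells (PCDHB10 through a cluster shared with PCDHB9), followed by PCDHB13, which was level, and PCDHB15, which was higher.
PCDHB16 chr5:141182301-141182352: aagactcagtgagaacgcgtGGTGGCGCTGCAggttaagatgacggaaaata
PCDHB9 chr5:141187065-141187116: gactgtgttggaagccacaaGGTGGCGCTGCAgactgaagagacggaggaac
PCDHB10 chr5:141192290-141192341: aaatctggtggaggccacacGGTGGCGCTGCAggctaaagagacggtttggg
PCDHB12 chr5:141208634-141208685: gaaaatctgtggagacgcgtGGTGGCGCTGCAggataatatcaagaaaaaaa
PCDHB13 chr5:141213856-141213907: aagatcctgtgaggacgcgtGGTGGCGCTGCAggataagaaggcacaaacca
PCDHB15 chr5:141245305-141245356: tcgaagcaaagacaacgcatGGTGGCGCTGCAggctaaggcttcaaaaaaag
PCDHB2 chr5:141094535-141094586: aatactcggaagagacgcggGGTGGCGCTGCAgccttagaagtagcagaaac
PCDHB4 chr5:141121714-141121765: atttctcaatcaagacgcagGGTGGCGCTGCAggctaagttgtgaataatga
PCDHB5 chr5:141135170-141135221: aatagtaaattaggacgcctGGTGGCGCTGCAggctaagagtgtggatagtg
PCDHB8 chr5:141177768-141177819: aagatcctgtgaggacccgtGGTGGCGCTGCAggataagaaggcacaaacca

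The letters CGCT lie inside this stretch. The alpha promoters share another stretch around the same letters, CATGATGTCGCT, in 8 of 13 genes and in 8 windows of all genes, 0.0228%. It is shown in capitals for the 3 alpha genes that have both the stretch and a cluster of their own.
PCDHA5 chr5:140821530-140821581: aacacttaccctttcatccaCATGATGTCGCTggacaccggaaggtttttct
PCDHA6 chr5:140827885-140827936: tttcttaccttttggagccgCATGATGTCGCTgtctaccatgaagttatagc
PCDHA7 chr5:140834160-140834211: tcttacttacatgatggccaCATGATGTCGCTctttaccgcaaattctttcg

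The gamma windows were more varied. Their most widely shared stretch, CTCTGGGCGCCG, occurred in 5 of 20 genes, all of the PCDHGB kind, and in 17 windows of all genes, 0.0484%, and is shown for both of the measured members that hold it. In PCDHGB5 a CGCT begins within its last letters.
PCDHGB5 chr5:141397849-141397900: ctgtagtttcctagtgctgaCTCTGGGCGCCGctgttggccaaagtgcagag
PCDHGB7 chr5:141417569-141417620: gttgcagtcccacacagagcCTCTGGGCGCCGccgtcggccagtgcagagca

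The 4 letters CGCT, searched on both strands, where they read AGCG on the other, were present in 46 of 47 genes of the family, or 97.9%, against 70.0% of all promoter windows. So short a word is common, and its presence is a description of the letters and not of a bound factor. TATAAA, searched on both strands, was present in 6 of the 47 genes, or 12.8%, against 11.5% of all windows. For both words and for the shared stretches the units differ. A family gene counted if any of its windows matched, whereas the share over all genes was taken per window. The windows of all genes include those of the family. Like the beta stretch, the alpha and gamma stretches were picked for being the most shared in their own array. For comparison along their full length, the windows of PCDHB16, the member furthest apart between the arrays, and PCDHB13, a member at the same signal on both, are printed with the shared beta stretch in capitals.
PCDHB16 chr5:141182137-141182436: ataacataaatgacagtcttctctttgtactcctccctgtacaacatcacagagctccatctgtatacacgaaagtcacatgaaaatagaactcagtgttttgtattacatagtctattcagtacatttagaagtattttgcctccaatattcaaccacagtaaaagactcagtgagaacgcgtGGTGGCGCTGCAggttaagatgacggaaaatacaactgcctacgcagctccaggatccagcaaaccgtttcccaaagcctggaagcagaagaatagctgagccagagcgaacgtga
PCDHB13 chr5:141213669-141213968: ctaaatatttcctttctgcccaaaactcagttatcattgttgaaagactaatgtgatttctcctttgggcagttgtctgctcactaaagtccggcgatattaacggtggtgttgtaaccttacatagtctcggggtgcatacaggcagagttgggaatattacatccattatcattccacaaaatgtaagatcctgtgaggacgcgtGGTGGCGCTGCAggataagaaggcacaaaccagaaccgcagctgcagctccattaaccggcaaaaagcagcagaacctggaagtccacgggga

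These beta windows hold 9 and 10 CpG dinucleotides and have a GC content of 43.0% and 46.3%. Both carry the shared stretch, at bases -66 and -43 from the annotated start. Over all pairs of the 14 beta windows the identity in a global alignment ranged from 40.9% to 71.3%, with a median of 48.7%, and the closest pair was PCDHB8 and PCDHB13. Among the beta members with a window, the 9 with the exact stretch differed between the arrays by -1.41 (PCDHB16, measured against a value under the floor) to 0.35, with a median of -0.24. The 4 without it, PCDHB1, PCDHB3, PCDHB7 and PCDHB14, differed by -0.48 to 0.04, with a median of -0.01. Of these only PCDHB14, at -0.48, reached the floor, and among those with the stretch PCDHB4 and PCDHB5 did not. The 2 medians therefore mix members below the floor with members above it. The cluster shared by PCDHB10 and PCDHB9, at -1.02, is in neither group, although the windows of both genes hold the stretch. Whether the stretch goes with a difference between the arrays was not tested.

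**Figure D1:**
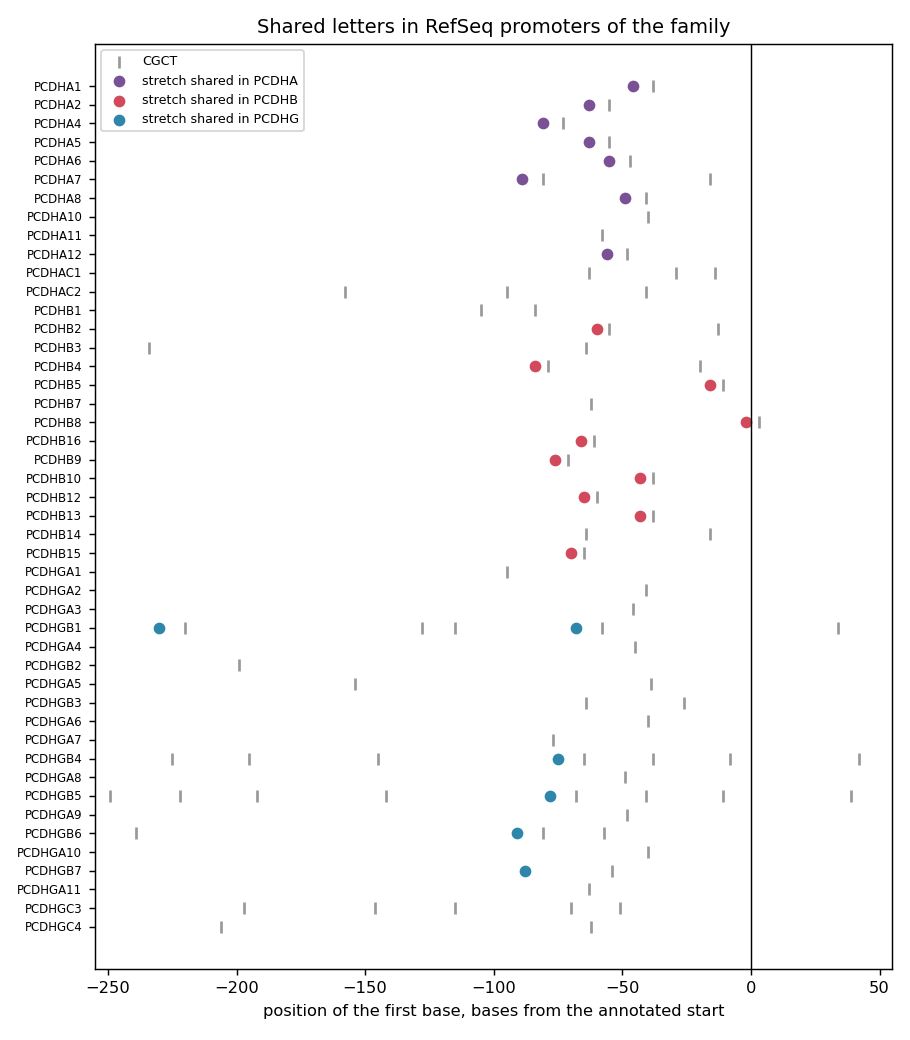
Position of CGCT (grey ticks) and of the 12-base stretch shared within each array (coloured dots) on the coding strand of RefSeq promoter windows, in bases from the annotated start (black line), with 1 row per gene that has a match. The shared beta stretch begins at -66 in PCDHB16 and -43 in PCDHB13, and PCDHGB1 has 2 dots because it has 2 annotated starts.

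Of the 32 members, 14 reached the floor on both arrays, 2 in MTA1-overexpressing cells alone, 1 in control cells alone, and 15 on neither. Together 17 of 32 were at or above the floor on at least 1 array, beside 35554 of 67527 transcript clusters. A floor at the median largely fixes that share, and the family as a whole was not set apart by it. Most members at or above the floor on at least 1 array belonged to the beta array, with 13 of its 19 members. In the alpha array it was 1 of 5 members and in the gamma array 3 of 8. Over all 32 members, the floor set aside, 21 were lower and 11 higher in MTA1-overexpressing cells, with a median difference of -0.09. Over all 67527 transcript clusters the median was 0.0042 and 48.8% were lower. In the beta array 16 of 19 were lower, with a median of -0.23. In the gamma array 4 of 8 were lower and the median was -0.08, and in the alpha array 1 of 5 was lower and the median was 0.07.

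**Figure D2:**
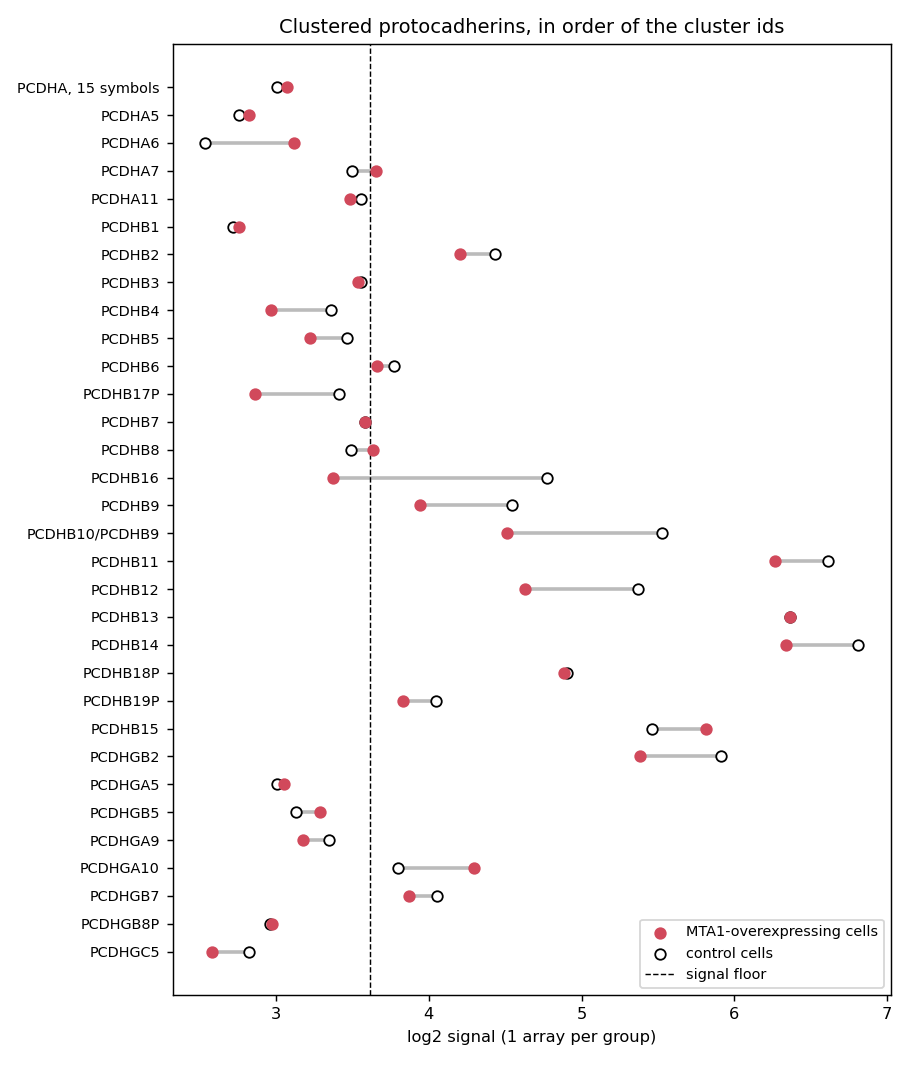
Log2 signal of each of the 32 members in MTA1-overexpressing cells (red) and control cells (open), 1 array each, in order of the identifiers, with the floor of 3.62 as a dashed line. Alpha members lie below the floor on both arrays, apart from PCDHA7 at 3.66 in MTA1-overexpressing cells, and the beta members from PCDHB16 on lie above it in control cells.

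Of the members, 2 were at least 2-fold lower in MTA1-overexpressing cells and none was at least 2-fold higher. Among all transcript clusters 0.378% were at least 2-fold lower and 0.256% at least 2-fold higher, and among the 35554 at or above the floor the shares were 0.712% and 0.481%. At a threshold of 1.5-fold, 4 members were lower and none higher, against 1.87% and 1.43% of all transcript clusters and 3.34% and 2.39% of those at or above the floor. Chromosome 5 as a whole leaned the same way, with 1.74% of its 1727 clusters at or above the floor at least 2-fold lower and 5.96% at least 1.5-fold lower, against 0.463% and 1.74% higher at these thresholds, 62.6% below 0 and a median of -0.06. The 50 identifiers before and the 50 after the members gave 67 clusters at or above the floor, of which none was at least 2-fold lower, 1 was at least 1.5-fold lower (1.49%), 4.48% were at least 2-fold and at least 1.5-fold higher, and the median was -0.05.

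The member furthest apart was PCDHB16, a beta protocadherin, at 3.37 in MTA1-overexpressing and 4.78 in control cells. Its signal was under the floor in MTA1-overexpressing cells, so the difference is given as at least 2.23-fold lower. Because it passed the floor through control cells alone, its place among the clusters that passed is no independent support for a difference.

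PCDHB16 is the first of 10 consecutive beta members, up to PCDHB15, that were all above the floor in control cells. Next in order, PCDHB9 was at 3.94 in MTA1-overexpressing and 4.54 in control cells, 1.52-fold lower. The cluster shared by PCDHB10 and PCDHB9 was at 4.51 in MTA1-overexpressing and 5.53 in control cells, 2.03-fold lower, a value just past the 2-fold threshold. It may read both genes, so it is not an independent second measure of PCDHB9 and cannot be assigned to PCDHB10 alone. These 3 adjoining clusters were lower together.

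Further along, the members differed among themselves. PCDHB11 was at 6.27 in MTA1-overexpressing and 6.62 in control cells, 1.27-fold lower. PCDHB12 was at 4.63 in MTA1-overexpressing and 5.37 in control cells, 1.67-fold lower. PCDHB13, between PCDHB12 and PCDHB14, was level, at 6.36 in both. PCDHB14 was at 6.34 in MTA1-overexpressing and 6.81 in control cells, 1.39-fold lower. The neighbouring pseudogene PCDHB18P was close to level, at 4.88 in MTA1-overexpressing and 4.91 in control cells. PCDHB19P, another pseudogene, was at 3.83 in MTA1-overexpressing and 4.05 in control cells, 1.16-fold lower. PCDHB15, the last beta gene, went the other way, at 5.82 in MTA1-overexpressing and 5.46 in control cells, 1.28-fold higher. Because this stretch was set by its signal in control cells, which favours lower values in MTA1-overexpressing cells, no count or median over it is given. The lower signal was not uniform along it, since PCDHB13 and PCDHB18P within it were close to level and PCDHB15 was higher.

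The 9 beta members before PCDHB16 had little signal. Of these, PCDHB2 was at 4.20 in MTA1-overexpressing and 4.43 in control cells, 1.18-fold lower. PCDHB6 was at 3.66 in MTA1-overexpressing and 3.78 in control cells, and PCDHB8 at 3.63 in MTA1-overexpressing and 3.49 in control cells, all close to the floor. PCDHB8 was the member just inside the floor, and PCDHB7, at 3.58 in both, the one just outside. The other members of this stretch below the floor were PCDHB1, PCDHB3, PCDHB4, PCDHB5 and PCDHB17P, and with PCDHB7 they lay between 2.76 and 3.58 in MTA1-overexpressing cells and between 2.72 and 3.58 in control cells. None of these 9 members differed by 1.5-fold in either direction.

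**Figure D3:**
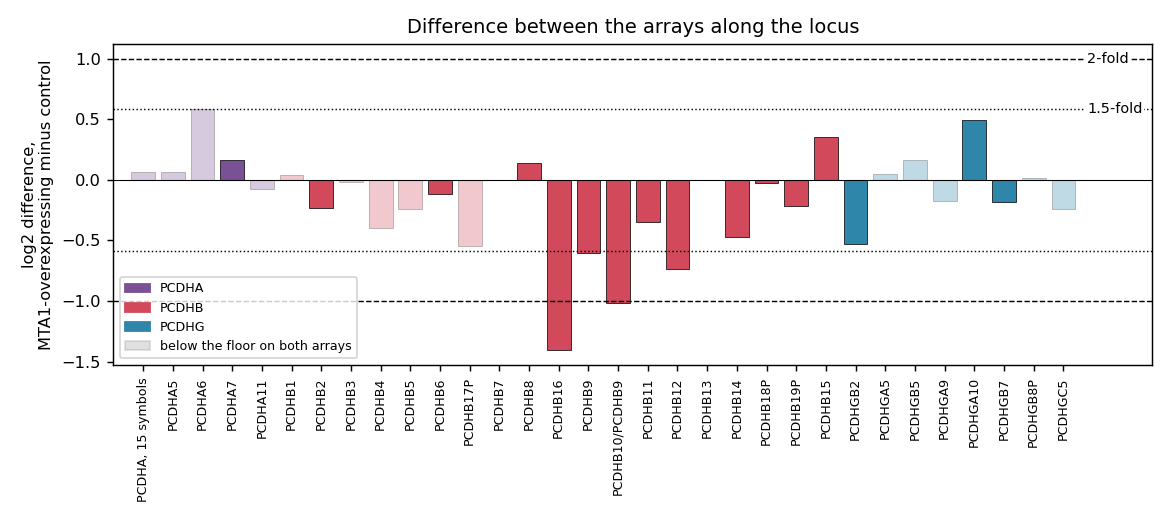
Log2 difference of each member, MTA1-overexpressing minus control, in order of the identifiers, coloured by array, with pale bars for members below the floor on both arrays and lines at 1.5-fold and 2-fold. PCDHB16, drawn at its measured -1.41 although its signal in MTA1-overexpressing cells is under the floor, and the cluster of PCDHB10 and PCDHB9 at -1.02 pass the 2-fold line. The solid bars above 0 are those of PCDHA7, PCDHB8, PCDHB15 and PCDHGA10. PCDHA7 and PCDHB8 passed the floor through MTA1-overexpressing cells alone, so their upward sign follows from the filter.

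In the gamma array 3 members reached the floor, and all did so on both arrays. PCDHGB2 was at 5.39 in MTA1-overexpressing and 5.91 in control cells, 1.44-fold lower. PCDHGA10 was at 4.30 in MTA1-overexpressing and 3.80 in control cells, 1.41-fold higher. PCDHGB7 was at 3.87 in MTA1-overexpressing and 4.06 in control cells, 1.14-fold lower. The other members, PCDHGA5, PCDHGB5, PCDHGA9, PCDHGC5 and the pseudogene PCDHGB8P, lay between 2.58 and 3.29 in MTA1-overexpressing and between 2.82 and 3.35 in control cells. Gamma members at or above the floor thus differed in both directions, and none by 1.5-fold. Their median of -0.18 was near the -0.23 of the beta members at or above the floor.

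In the alpha array only PCDHA7 reached the floor, at 3.66 in MTA1-overexpressing and 3.49 in control cells, close to the floor on both arrays. The cluster that lists 15 alpha symbols was at 3.07 in MTA1-overexpressing and 3.005 in control cells. PCDHA5 was at 2.82 in MTA1-overexpressing and 2.76 in control cells, and PCDHA11 at 3.49 in MTA1-overexpressing and 3.56 in control cells. PCDHA6 had the largest upward difference of any member, at 3.12 in MTA1-overexpressing and 2.54 in control cells, but both values were under the floor and no fold is given. No alpha cluster thus reached the floor in control cells.

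**Figure D4:**
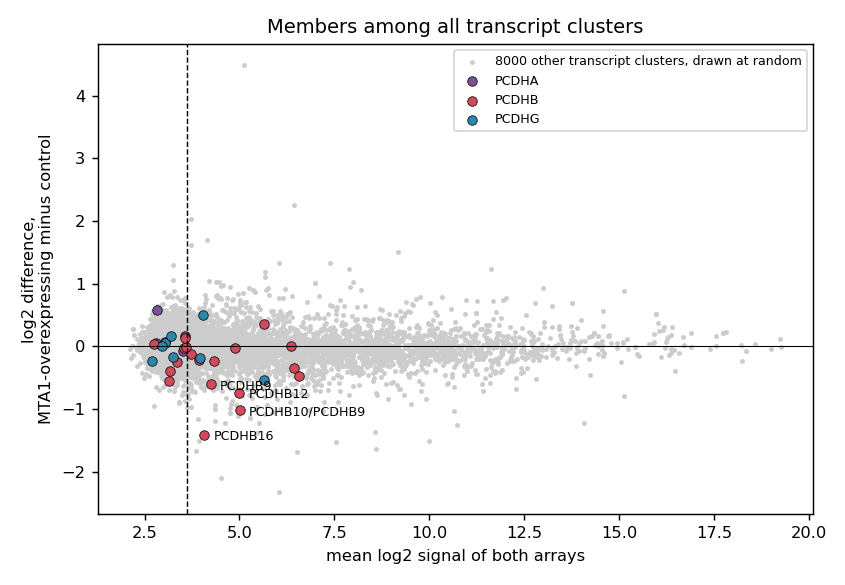
Log2 difference, MTA1-overexpressing minus control, against the mean log2 signal of both arrays for the 32 members (coloured) and 8000 other transcript clusters drawn at random (grey), with the floor as a dashed line. The 4 members at least 1.5-fold lower are labelled, from PCDHB9 at -0.60 to PCDHB16, drawn at its measured -1.41 and at least 2.23-fold lower against the floor.

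A list of possible regulators of protocadherin promoter choice, general chromatin genes such as HDAC1 and HDAC2 among them, lay within 1.5-fold. The list held 31 genes, among them CTCF, cohesin and its loaders and release factors, DNA methyltransferases and the H3K9 methyltransferase SETDB1. Of these, 29 were measured and reached the floor. None differed by 1.5-fold in either direction, against 1.74% of 14451 named genes lower and 1.45% higher. The shares at 1.5-fold are small, so none among 29 genes does not set the list apart. The median difference was -0.07, with 20 lower and 9 higher, beside a median of -0.01 and 53.6% lower over the named genes. The insulator protein gene CTCF was at 11.28 in MTA1-overexpressing and 11.35 in control cells. The largest differences in the list were those of the cohesin core genes SMC3, at 11.23 in MTA1-overexpressing and 11.61 in control cells or 1.30-fold lower, and SMC1A, at 13.25 in MTA1-overexpressing and 13.55 in control cells or 1.24-fold lower. STAG1, another cohesin subunit, was 1.18-fold lower, and the cohesin release factor gene WAPL was 1.06-fold lower. SMCHD1, which represses the clusters in mouse, was at 10.62 in MTA1-overexpressing and 10.71 in control cells. The methyltransferase gene DNMT3B was at 4.43 in MTA1-overexpressing and 4.36 in control cells, and DNMT3A at 5.65 in MTA1-overexpressing and 5.43 in control cells. MAZ, a zinc finger protein gene, was 1.18-fold higher and the methylcytosine dioxygenase gene TET1 stood near the floor, at 3.74 in MTA1-overexpressing and 3.53 in control cells. SETDB1 was 1.15-fold lower, and REST, which encodes a repressor of neuronal genes, was at 9.68 in MTA1-overexpressing and 9.69 in control cells. RAD21 is not analysed here.

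Genes for binding partners of protocadherins and for the proteases that cleave them also lay within 1.5-fold. Of 25 listed, 22 were measured. At or above the floor were 20 of them, 10 lower and 10 higher, with a median of 0.02. Among the named genes 1.74% were at least 1.5-fold lower and 1.45% at least 1.5-fold higher. These shares are small, so none among 20 genes does not set the list apart. The largest difference was that of the postsynaptic adhesion gene NLGN2, at 6.36 in MTA1-overexpressing and 5.87 in control cells or 1.40-fold higher. CYFIP2, a subunit of the WAVE actin regulatory complex, was under the floor at 3.50 in MTA1-overexpressing and at 3.81 in control cells. ABI1, another WAVE subunit, was 1.23-fold higher, the Wnt receptor gene ROR2 1.22-fold, the sorting nexin gene SNX9 1.21-fold and the gamma-secretase subunit gene PSENEN 1.16-fold higher. PTK2, which encodes focal adhesion kinase, was at 8.24 in MTA1-overexpressing and 8.08 in control cells, and the sheddase gene ADAM10 at 11.36 in MTA1-overexpressing and 11.43 in control cells.

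Protocadherin genes outside the clusters lay within 1.5-fold. Of 24 unclustered protocadherin and large cadherin genes, 23 were measured and 7 reached the floor, with 3 lower, 4 higher and a median of 0.02. With 1.74% of named genes at least 1.5-fold lower and 1.45% higher, none among 7 genes does not set the list apart. PCDH7 was at 10.16 in MTA1-overexpressing and 9.72 in control cells, 1.36-fold higher. FAT4, an atypical cadherin gene, was at 6.78 in MTA1-overexpressing and 7.04 in control cells, 1.20-fold lower. PCDH1, which lies beyond the gamma array on the same chromosome, was at 4.85 in MTA1-overexpressing and 5.02 in control cells, 1.12-fold lower. CELSR2 and CELSR1, which encode planar polarity cadherins, were 1.11-fold and 1.07-fold higher, CDHR5 was near the floor at 3.66 in MTA1-overexpressing and 3.70 in control cells, and FAT1 was at 11.37 in MTA1-overexpressing and 11.34 in control cells. Whether the beta members differ from these genes was not tested.

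Listed genes that flank the arrays lay within 1.5-fold, but the list does not speak for every cluster nearby. Of the 67 clusters at or above the floor around the members, 3 (4.48%) were at least 2-fold higher. The share among all clusters at or above the floor was 0.481%. Of 32 listed, 29 were measured and 25 reached the floor, with 18 lower, 7 higher, none at 1.5-fold and a median of -0.08. Among the named genes 53.6% were lower, 1.74% at least 1.5-fold lower and 1.45% at least 1.5-fold higher. The shares at 1.5-fold are small, so none among 25 genes does not set the list apart. ZMAT2, which lies before the alpha array, was at 8.31 in MTA1-overexpressing and 8.40 in control cells. TAF7, a TFIID subunit gene between the beta and gamma arrays, was at 10.36 in MTA1-overexpressing and 10.41 in control cells, and its neighbour SLC25A2, a mitochondrial carrier gene, was below the floor at 3.24 in MTA1-overexpressing and 3.13 in control cells. DIAPH1, a formin gene that follows the gamma array, was at 10.85 in MTA1-overexpressing and 10.91 in control cells, and HDAC3, a histone deacetylase gene beyond it, at 8.93 in MTA1-overexpressing and 8.95 in control cells. The vault RNA genes beside the alpha array differed in both directions, with VTRNA1-1 at 5.30 in MTA1-overexpressing and 4.98 in control cells or 1.25-fold higher, VTRNA1-3 1.18-fold lower and VTRNA1-2 1.15-fold lower. WDR55 was 1.18-fold lower.

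**Figure D5:**
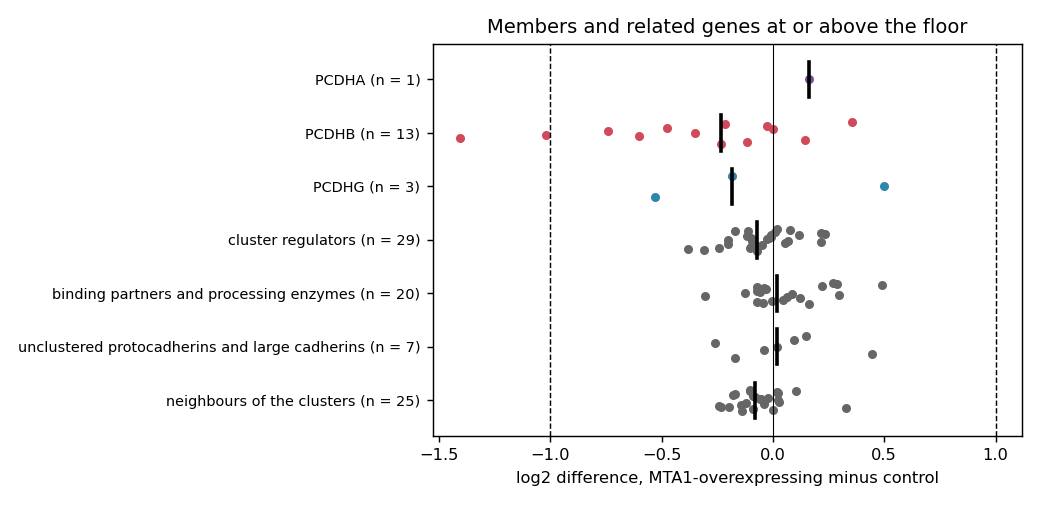
Log2 differences, MTA1-overexpressing minus control, of the members of each array and of the genes of 4 related lists at or above the floor, 1 dot per transcript cluster or gene, with the median as a black bar and dashed lines at 2-fold. The medians are -0.23 for the 13 PCDHB members, -0.18 for the 3 PCDHG members and between -0.08 and 0.02 for the 4 lists. PCDHA holds 1 member, at 0.16, which passed the floor through MTA1-overexpressing cells alone, so its sign follows from the filter.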

How the data were processed

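RNA of 2 NCI-H446 cultures was hybridised to Affymetrix arrays, 1 per group, so the number of arrays limits the precision. The authors deposited log2 signals made with RMA, per the submitters' processing notes; version and annotation release are not stated in the labels. Values were used as deposited. Of 70523 features 67528 were transcript clusters, and 1 feature lacked a value. Symbols came from the platform's probe table, and 21497 of 23781 single-symbol probe sets took the current RefSeq symbol by gene identifier. In the related lists each gene was represented by its brightest transcript cluster with 1 symbol. A feature was kept if its higher signal reached the median over transcript clusters. Counting was tested on simulated data with little noise, in features well above the floor and with changes larger than that of any member. That test does not cover members near the floor or smaller differences. Members and lists were chosen with earlier results of these data known. All members at or above the floor were named, with up to 6 genes per list by size of difference and a few fixed genes. PTK2, ADAM10, FAT1 and the markers were picked after seeing their values. RefSeq promoters (GRCh38.p14) were searched for exact letters. Alternatives changed scaling, floor, clusters per member and threshold. Python 3.11.15, numpy 2.4.6, pandas 2.3.3 and statsmodels 0.14.6 were used.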

Additional observations from a re-analysis of the deposited data

How the results depend on the processing

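No paired analysis was possible because each group has 1 array, and no replicate could be left out. The count of members at least 2-fold lower was 2 and became 1 with quantile normalisation repeated, with loess and with median centring, where the cluster of PCDHB10 and PCDHB9 no longer reached the threshold, 1 when a member needed the floor on both arrays, which drops PCDHB16, 1 with single-symbol clusters alone, 0 with the floor at percentile 75 (5.67), and 4 at a 1.5-fold threshold. Members at or above the floor numbered 17, 32 with no floor and 5 with the floor at percentile 75. With the spike-in hybridisation controls as the zero, 29 of 32 members were lower and 9 were at least 1.5-fold lower. The median of PCDHA members at or above the floor was then -0.31, over PCDHA11 alone, in place of 0.16, over PCDHA7 alone. That move reflects another member passing the floor as well as the shift. With the floor at percentile 75 the median of PCDHG members was -0.53 in place of -0.18, over PCDHGB2 alone. The 4 members at least 1.5-fold lower kept their direction under the 4 scalings tried, but with median centring 3 were at least 1.5-fold lower, without PCDHB9 at -0.58, and 1 was at least 1.5-fold higher, PCDHA6, which is below the floor on both arrays as deposited. Levels near 0 did not, and PCDHB13 was above 0 with quantile normalisation, loess and median centring. Beta members lower numbered 13 to 18 of 19 over these scalings.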

Other observations

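A few unnamed transcript clusters have identifiers inside or next to the run of members. One between PCDHB15 and PCDHGB2 was at 3.76 in MTA1-overexpressing and 3.77 in control cells. Of the pair directly after PCDHGC5, the first was below the floor at 3.30 in MTA1-overexpressing and 3.11 in control cells, and the second was at 5.41 in MTA1-overexpressing and 4.83 in control cells, 1.49-fold higher. The probe table gives none of them a gene, so they entered no count of members.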
